A study of Homo sapiens with 22 samples.

Results

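The cells described here are those of day 13 (D13) of a reprogramming time course that held POU5F1 at 500 CPM or more and CER1 below 200 CPM, where CPM is the count of a gene scaled to a fixed total per cell. POU5F1 encodes the transcription factor OCT4, without which the pluripotent state is not kept, and CER1 encodes a secreted Nodal antagonist of the primitive streak and endoderm. The cells were chosen by the values of these genes among cells with at least 1000 genes detected and at most 10% of their unique molecular identifiers (UMIs) on mitochondrial genes, with CPM taken over all UMIs of a cell. Of the 5446 cells kept on D13, 3628 passed the rule, out of 41975 cells kept in the whole series. Pool A gave 831 of its 1377 cells (60.3%, 95% exact binomial interval 57.7 to 62.9%) and pool B 2797 of 4069 (68.7%, 67.3 to 70.2%). These intervals cover counting error only.

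BJ cells, an established line of human foreskin fibroblasts, were reprogrammed in microfluidic chambers by daily transfection of mRNAs for POU5F1, SOX2, KLF4, MYC, LIN28A and NANOG. Transfection ended before D9 and the cells then grew in an iPSC medium, so that the cells of D13 received no more factor mRNA. Each day has 2 pools, A and B, each made from the cells of several chips that were joined, frozen and thawed before capture, and the pools are the replicates (n = 2 per day). The pools of a day came from separate chips of the same line, so a p-value measures the spread between pools of chips, and part of it may be technical. The days set beside D13 are D9, D11 and D15, with the same rule applied to their cells, and the D0 fibroblasts serve as background.

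The POU5F1-high cells were deeply sequenced, with a median of 63435 UMIs and 6869 genes per cell in D13 pool A and 39763 UMIs and 5481 genes in pool B. The median share of mitochondrial UMIs was 3.89% in pool A and 5.67% in pool B. Summed over the POU5F1-high cells, a pool of D9 to D15 held between 29098163 UMIs (D15 pool A) and 118077682 UMIs (D13 pool B). The libraries of D13 pools A and B shared 7 cell barcodes, 0.508% of the smaller library. The pools of D13 stood further apart than those of any other of these days, as described below, and results are given for each pool for this reason.

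Human pluripotent stem cells are kept by a network around OCT4, SOX2 and NANOG, together with Nodal and FGF signalling. Cells in the primed state resemble the epiblast after implantation and carry markers such as ZIC2, SFRP2 and DNMT3B, whereas naive cells resemble the epiblast before it and carry KLF17, DPPA3, DPPA5 and ALPPL2. In reprogramming, the somatic programme is silenced while this network is switched on from the cell's own genes, and cells that do not complete the change keep genes of the matrix and cytoskeleton.

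POU5F1 (ENSG00000204531, chromosome 6, 31164337 to 31180731 of GRCh38) had a lower and an upper peak over the cells of D13 in both pools, at different levels, and with many cells between the peaks in pool B. The median POU5F1 level of the chosen cells was 1862 CPM in pool A (quartiles 1652 and 2094) and 836 CPM in pool B (718 and 958). The corresponding medians were 1258 and 1484 CPM for pools A and B of D11, and 1298 and 1297 CPM for those of D15. Thus pool A of D13 lay above and pool B below all 4 neighbouring pools.

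In pool A the threshold fell into an almost empty range, with 2 cells between 450 and 500 CPM and 2 between 500 and 550 CPM among those under the CER1 limit. In pool B it fell on the flank of the upper group, with 50 cells just below and 90 just above. Accordingly the share in pool A stayed between 57.9 and 61.2% under the other limits tried, whereas the share in pool B was 78.7% at 250 CPM and 13.1% at 1000 CPM. After each cell was thinned to 5000 UMIs before the rule was applied, it was 59.5% in pool A and 52.1% in pool B. The cells of pool B between 250 and 500 CPM (407 cells) held TERF1 at 654 CPM and COL1A1 at 2107 CPM, against 1612 and 216 CPM in the 2264 cells between 500 and 1000 CPM, so that they were nearer to the cells with less POU5F1 in both genes.

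**Figure D1:**
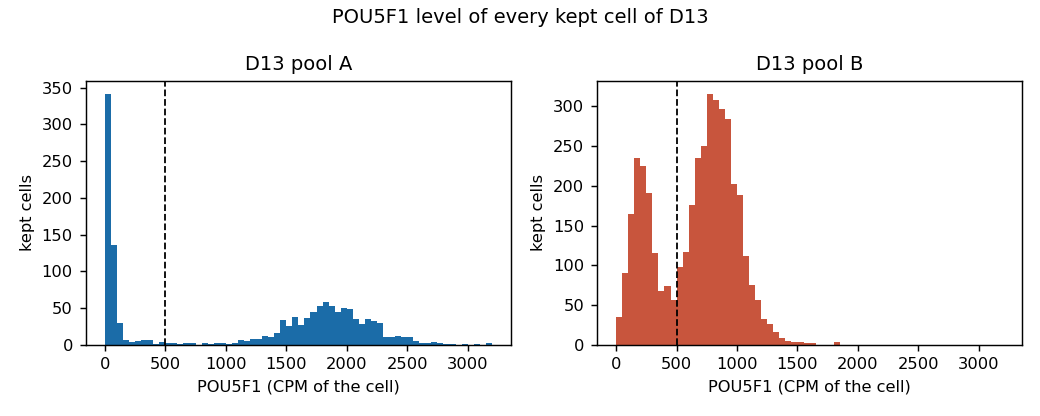
POU5F1 level of each kept cell of D13 (x axis, CPM of the cell, in bins of 50 CPM) against the number of cells (y axis) for pool A (831 cells chosen) and pool B (2797 cells chosen); the dashed line is the threshold of 500 CPM. The upper group centres near its median of 1862 CPM in pool A and of 836 CPM in pool B, and only in pool B do cells fill the range around the line.

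The label of pluripotent cells was checked with the 3 markers that the rule did not use. After each cell was thinned to 5000 UMIs, L1TD1, an RNA-binding protein of pluripotent cells, had a UMI in 94.0% of the chosen cells of pool A and 96.4% of pool B, against 1.17 and 1.04% of the fibroblasts in the pools of D0. DPPA4, a chromatin protein of early embryonic cells, had one in 83.9 and 69.8% (0.0326 and 0.0216% of unthinned D0 cells), and SEMA6A, a semaphorin, in 68.1 and 73.9% (0.521 and 0.626% on D0). Without thinning, at least 98.4% of the chosen cells of each pool had a UMI of each of these markers, where D0 cells at a median depth of 23717 and 28376.5 UMIs reached at most 5.01%. The markers were thus present in the chosen cells far above the level in fibroblasts, and the name was kept. Against the other cells of the same day the markers separated less well in pool B: L1TD1 had a UMI in 18.0% of thinned cells of pool A with POU5F1 and CER1 below the limits and in 58.7% of pool B, and in 49.4 and 71.4% of the cells with CER1 at 200 CPM or more. Without thinning, 95.1% of the former cells of pool B had one.

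Cells that missed the rule on D13 are given as background, namely 467 cells of pool A and 1034 of pool B with less POU5F1 and less CER1 than the limits, called POU5F1-low below. A further 79 and 238 cells had CER1 at 200 CPM or more, and 4 and 18 of these also passed the POU5F1 limit. Since the cells were chosen by these genes, the contrast between the classes is a description without a test. All 18 core pluripotency genes of the list used, other than POU5F1, were at least 2-fold higher in POU5F1-high than in POU5F1-low cells in both pools, on the scale of CPM + 1 that all 2-fold counts of listed genes use. All 24 fibroblast genes were at least 2-fold lower. Genes entered these counts only if found in enough POU5F1-high cells, but this filter removed no member of either list. On the same scale, 2077 of all 13148 genes tested were at least 2-fold higher in the POU5F1-high cells of pool A, and 631 in those of pool B. At least 2-fold lower were 2141 and 1393. Genes found only in the other cells are missing from this background. Over the 4678 genes at 20 CPM or more in the higher class of both pools, 237 were at least 2-fold higher and 686 at least 2-fold lower in both pools.

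Genes higher in the chosen cells included, beside L1TD1, the telomere-binding protein TERF1, the RNA polymerase III subunit POLR3G, the deubiquitinase USP44, the kinase PIM2, the secretory granule protein SCG3 and the long noncoding RNA FOXD3-AS1. TERF1 was at 1336 CPM in POU5F1-high and 60.8 CPM in POU5F1-low cells of pool A, and at 1601 and 425 CPM in pool B. L1TD1 was at 736 and 47.7 CPM in pool A, and at 827 and 220 CPM in pool B. For both genes the chosen cells of the pools were close to each other, while the POU5F1-low cells of pool B held several times more than those of pool A. The 10 genes with the largest ratio in both pools, which also include the noncoding RP11-1144P22.1, RP11-132A1.3 and RP11-267L5.1, had ratios between 15.4 and 114 in pool A and between 3.75 and 4.62 in pool B. FOXD3-AS1 gave 501 against 8.33 CPM in pool A and 381 against 85.0 CPM in pool B.

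The 10 genes lower in the chosen cells with the largest ratio were the muscle and stretch response gene ANKRD1, FILIP1L, the homeobox genes HOXA10 and PRRX1, the nuclear receptor NR2F2, the secreted proteins IGFBP5, THBS1, POSTN and INHBA (a subunit of activin) and the surface enzyme NT5E. IGFBP5 was at 6.38 CPM in POU5F1-high and 394 CPM in POU5F1-low cells of pool A, and at 23.2 and 410 CPM in pool B. HOXA10 was at 0.885 and 100 CPM in pool A, and at 2.91 and 54.7 CPM in pool B. Between the pools, 10 of the 24 fibroblast genes were at least 2-fold higher in the chosen cells of pool B than in those of pool A, beside 3.62% of all genes tested, and 0 were higher by as much in pool A. TAGLN, a further member of this list, was at 872 CPM in pool A and 444 CPM in pool B, and ANXA1, which is not in the list but stood at 734 CPM in D0 pool A, was also higher in pool A.

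Whether RNA released by other cells adds to these levels was not tested. The values that bear on it are the levels in cells with the least POU5F1: the 104 cells of pool B below 100 CPM held TERF1 at 263 CPM and L1TD1 at 160 CPM, and the 431 such cells of pool A held 59.5 and 42.6 CPM. In thinned cells, SOX2 had a UMI in 63.7% of POU5F1-high and 1.07% of POU5F1-low cells of pool A, and in 58.3 and 19.6% in pool B. COL1A1, a collagen of fibroblasts, had one in 28.4% of POU5F1-high cells of pool A and 62.5% of pool B. In both directions, therefore, the 2 classes of pool B were less far apart than those of pool A.

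The pools of D13 differed from each other in many genes of the chosen cells. Of 5010 genes at 20 CPM or more in the higher pool, 774 (15.4%) differed by more than 2-fold, 566 higher in pool A and 208 higher in pool B. Between the pools of D9, D11 and D15, 0.0423, 2.28 and 0.763% of genes did so. With 1 library per pool there is no test of these ratios, and the intervals given are exact Poisson intervals for counting error. After scaling by trimmed means (TMM) the split changed to 378 genes higher in pool A and 285 in pool B, and 13.4% of genes passed.

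The 8 largest ratios in favour of pool A were those of ANXA1 and ANXA3, CYP26A1, ACTA1, CSH1, TNFRSF12A, MYADM and SPP1. ANXA1, a membrane-binding annexin, was at 157 CPM in pool A and 30.2 CPM in pool B (5.20-fold). CYP26A1, which degrades retinoic acid, was at 86.6 and 18.1 CPM, and ACTA1, the actin of skeletal muscle, at 390 and 85.3 CPM. SPP1, the secreted matrix protein osteopontin, was at 472 and 132 CPM. For ANXA1, ACTA1 and SPP1 pool A lay nearer in ratio to the D11 pools (ANXA1 150 and 156, ACTA1 918 and 862, SPP1 645 and 718 CPM) and pool B nearer to the D15 pools (10.8 and 22.6, 34.2 and 46.2, 47.3 and 80.2 CPM). CYP26A1 was at 78.6 and 109 CPM on D11 and 2.27 and 6.15 CPM on D15, with pool A of D13 between the D11 pools and pool B between the days. TNFRSF12A, a receptor of the TNF family, did not, since pool A, at 270 CPM, was above both D11 pools (149 and 108 CPM) and pool B, at 75.2 CPM, below both D15 pools (99.9 and 94.6 CPM). In the POU5F1-low cells ANXA1 (436 and 175 CPM), TNFRSF12A (773 and 199 CPM) and ANXA3 (60.2 and 21.5 CPM) were also higher in pool A. So were MYADM (99.3 and 40.2 CPM), SPP1 (282 and 190 CPM) and CYP26A1 (30.3 and 21.3 CPM). ACTA1 (49.1 and 51.6 CPM) and CSH1 (2.02 and 10.1 CPM) were not.

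The 8 largest ratios in favour of pool B were MRPS24, NME2, C11orf98, PAM16, CRIP1, IFITM1, UQCRHL and AC090498.1. NME2, a nucleoside diphosphate kinase, was at 6.02 CPM in pool A and 446 CPM in pool B (74.0-fold, 66.3 to 82.8), and the mitochondrial ribosomal protein gene MRPS24 at 0.395 and 73.5 CPM (186-fold, 122 to 300). These genes differed in the same way in the POU5F1-low cells of the pools, with NME2 at 6.26 and 500 CPM. NME2, MRPS24, C11orf98, PAM16, CRIP1 and IFITM1 also varied from library to library over the whole series. Over all cells of a pool, NME2 was lowest in pool A of D13 (6.08 CPM) and highest in pool B of D13 (457 CPM). In the pools of the other days NME2 lay between 6.62 and 336 CPM. NME2 and UQCRHL have near-identical copies or share reads with their neighbours, and their counts are uncertain. Across the 5001 genes with a known transcript length, the median log2 ratio of pool A to pool B was 0.19 for the 1000 shortest, 0.68 for the next 998 and −0.22 for the 1001 longest transcripts. It was 0.07 for the 1000 genes of lowest and 0.60 for the 1001 genes of highest GC content. For the same groups by GC it was −0.24 and 0.19 between the pools of D11, −0.09 and 0.07 on D9, and −0.002 and −0.05 on D15. For the shortest and longest transcripts it was 0.12 and −0.20 between the pools of D11. The part of library preparation in the differences between the pools was not tested.

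**Figure D2:**
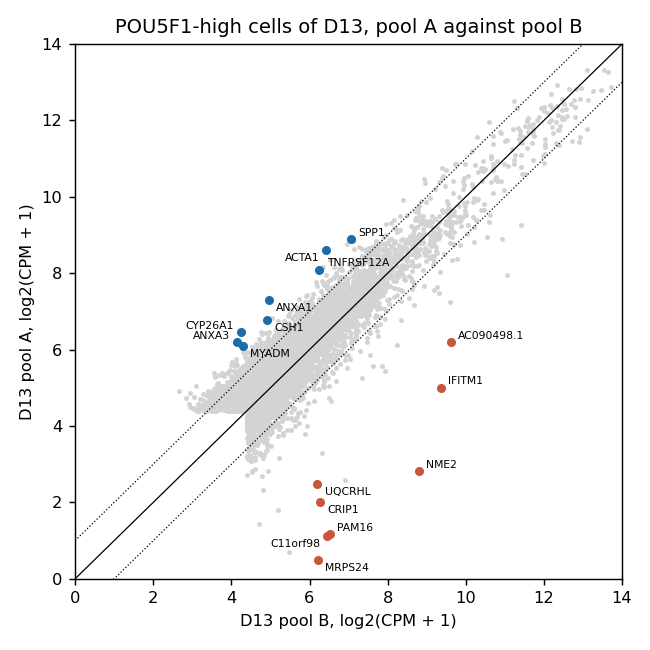
Level of each gene at 20 CPM or more in the POU5F1-high cells of D13, as log2(CPM + 1), in pool B (x axis) and pool A (y axis), 1 point per gene; the solid line marks equal levels and the dotted lines a 2-fold difference. Blue points are the 8 largest ratios in favour of pool A and red points the 8 in favour of pool B, where NME2 was at 6.02 CPM in pool A and 446 CPM in pool B.

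The next question was whether the chosen cells of D13 differed from those of D11, before, and of D15, after. UMIs were summed per pool and the 8 sums of D9 to D15 were compared in 1 fit of edgeR's quasi-likelihood test, in which calls needed an adjusted p (Benjamini-Hochberg) under 0.05 and an absolute log2 fold change over 0.25. The fit takes the spread of a gene between pools as equal on these days, although the pools of D13 stood furthest apart. POU5F1 and CER1, which the rule used, were given no test. Of 13148 genes tested, 33 (0.251%) were called higher and 42 (0.319%) lower on D13 than on D11, and 1830 (13.9%) had an unadjusted p below 0.05. The call depended on the fit: DESeq2 called 544 genes (2.15% of those tested higher and 1.99% lower), including all 75, whereas 0 were called with only the pools of D11, D13 and D15, and 0 without pool A or without pool B of D11. Fits without pool A or without pool B of D13 assume that the lone pool varies like the others. All 75 genes moved in the same direction in both of these fits. They had been called on these same pools, so this agreement follows from the choice of genes and is no separate support.

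The genes that rose included the enzymes HMOX1, AASS and MAT2A. HMOX1 (ENSG00000100292, chromosome 22, 35380361 to 35394214), which degrades haem under oxidative stress, was at 12.8 and 11.4 CPM in pools A and B of D11, 59.5 and 31.6 CPM on D13, and 16.7 and 19.2 CPM on D15. Both pools of D13 were above all 4 others. The log2 fold change from D11 was 1.92 ± 0.28 (SE, adjusted p = 0.0376). In the POU5F1-low cells HMOX1 was at 8.20 and 5.67 CPM on D11, 12.2 and 15.5 on D13, and 24.8 and 15.3 on D15. There too D13 lay above D11, but it overlapped with D15. AASS (chromosome 7, 122064583 to 122144308), the first enzyme of lysine degradation, was at 14.7 and 22.5 CPM on D11, 59.3 and 57.8 CPM on D13, and 61.8 and 52.4 CPM on D15 (log2 fold change 1.69 ± 0.22, adjusted p = 0.0342). AASS thus differed between D11 and D13 and overlapped between D13 and D15.

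MAT2A (ENSG00000168906, chromosome 2, 85539168 to 85545281) makes S-adenosylmethionine, the methyl donor of DNA and histone methylation. It was at 60.9 and 73.2 CPM in the chosen cells of D11, 157 and 160 CPM on D13, and 49.5 and 57.6 CPM on D15. The D13 pools lay more than 2-fold above each of the other 4, and the D9 pools, at 130 and 128 CPM, were also above D11 and D15. The rise from D11 was called (log2 fold change 1.27 ± 0.18, adjusted p = 0.0369, called in 11 of 16 other settings), but the difference from D15 (−1.56, adjusted p = 0.0957, called in 5 of 16) and that from the mean of D11 and D15 (1.42, adjusted p = 0.0823, called in 4 of 18) were not. In thinned cells, 51.5 and 54.5% of the chosen cells of D13 had a UMI of MAT2A, against 25.5 and 28.7% on D11, 21.4 and 24.7% on D15, and 19.6 and 21.3% of D0 fibroblasts. The POU5F1-low cells held MAT2A at 105 and 109 CPM on D9, 36.3 and 37.7 on D11, 91.4 and 106 on D13, and 24.5 and 36.6 on D15. In them too D13 lay above D11 and D15, but it overlapped with D9.

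The other genes named by size among the rises were TMSB15A, which binds actin monomers, the noncoding RP11-568A7.4, the sulfurtransferase TSTD1, the ubiquitin ligase MIB2 of the Notch pathway and HAGHL. RP11-568A7.4 was at 82.9 and 87.9 CPM on D11, 184 and 223 CPM on D13, and 196 and 196 CPM on D15. All 5 stayed above the D11 level on D15. Called at lower levels, and named after their values were seen, were SOX11, a factor of neural progenitors, at 4.25 and 3.84 CPM on D11 and 11.3 and 10.98 CPM on D13, ZIC5 at 2.42 and 3.27 against 7.55 and 8.11 CPM, and LRRN1, a surface protein of embryonic stem cells, at 5.31 and 6.99 against 18.4 and 23.4 CPM.

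The genes that fell included the ligands BMP4 and WNT3 and the AP-1 subunit JUN. BMP4 (ENSG00000125378, chromosome 14, 53949736 to 53958761), a ligand of the TGF-beta family, was at 51.1 and 54.3 CPM on D11, 18.8 and 9.58 CPM on D13, and 6.74 and 6.49 CPM on D15. Both pools of D13 were below D11 and above D15, and the log2 fold change from D11 was −1.89 ± 0.28 (adjusted p = 0.0376). In the POU5F1-low cells it was at 87.9 and 90.3 CPM on D11 and 132 and 70.6 CPM on D13, and these days overlapped. WNT3, a ligand of the primitive streak, its target SP5 and the receptor FZD2 were called lower as well (WNT3 11.1 and 11.8 against 3.84 and 2.68 CPM, log2 fold change −1.80, adjusted p = 0.0342). TFAP2A, a factor of surface ectoderm and trophoblast, went from 5.01 and 5.33 to 0.979 and 1.30 CPM and ANPEP, the fibroblast marker CD13, from 6.89 and 5.37 to 1.34 and 1.44 CPM.

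JUN (ENSG00000177606, chromosome 1, 58776845 to 58784048), a subunit of AP-1, was at 83.5 and 75.1 CPM on D11, 32.6 and 25.9 CPM on D13, and 44.5 and 53.4 CPM on D15 (log2 fold change from D11 −1.42 ± 0.20, adjusted p = 0.0373). In the chosen cells D13 was the lowest of the 4 days, since D9 held 47.8 and 57.9 CPM. The POU5F1-low cells held JUN at 180 and 235 CPM on D11, 105 and 68.9 on D13, and 174 and 161 on D15. In them too D13 lay below D11 and D15, but it overlapped with D9, at 91.6 and 112 CPM. IFI16, a sensor of foreign DNA, went from 24.3 and 30.4 CPM on D11 to 2.86 and 6.53 CPM (−2.48 ± 0.42, adjusted p = 0.0499). SAT1, which acetylates polyamines, went from 261 and 252 to 108 and 90.5 CPM, and the haem-binding protein HEBP2 from 470 and 474 to 174 and 196 CPM. These genes were lower on D13 than on D11 in the POU5F1-low cells as well. There IFI16 went from 83.7 and 136 to 51.8 and 79.2 CPM. SAT1 went from 248 and 261 to 237 and 172 CPM, and HEBP2 from 182 and 147 to 76.9 and 141 CPM. The falls named by size also include HPGD, which degrades prostaglandins, the kinase NRK and the mesenchymal homeobox gene PRRX2. In all 8 genes named by size the pools of D11 and D13 did not overlap, which the naming rule required.

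**Figure D3:**
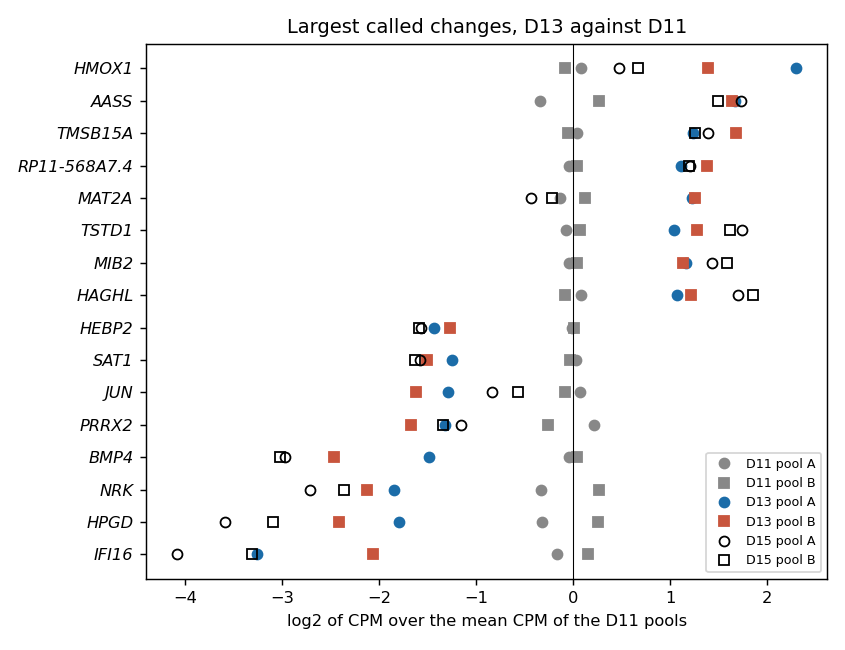
CPM in the POU5F1-high cells as log2 of the ratio to the mean of the D11 pools (x axis) for the 16 genes named by size (y axis), with circles for pool A and squares for pool B; grey is D11, blue and red are D13, and open symbols are D15. HMOX1, MAT2A and JUN returned towards the D11 level on D15 (HMOX1 59.5 and 31.6 CPM on D13, 16.7 and 19.2 CPM on D15), while the other 13 genes stayed on the D13 side.

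From D13 to D15, 0 of 13148 genes (0.0%) were called by edgeR, with 2393 genes at an unadjusted p below 0.05, and DESeq2 called 613. Against the mean of D11 and D15, 0 genes (0.0%) were called by edgeR, with 1460 at an unadjusted p below 0.05, and DESeq2 called 62. Without pool B of D13, edgeR called 4250 and 2536 genes, and without pool A 55 and 132. The counts of 0 therefore belong to the edgeR fit with both pools and do not show that no gene differed.

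Of the 18 core pluripotency genes other than POU5F1, edgeR called 0 between D11 and D13, with 4 at an unadjusted p below 0.05, and DESeq2 called SOX2 higher (adjusted p = 0.0238) and UTF1 lower (adjusted p = 0.0164). SOX2 was at 115 and 117 CPM on D11, 231 and 186 CPM on D13, and 310 and 281 CPM on D15, and the days did not overlap (D13 against D11, log2 fold change 0.87 ± 0.22, edgeR adjusted p = 0.127). TERF1 had the same order, at 907 and 1123, 1336 and 1601, and 1892 and 1799 CPM (0.57 ± 0.18, adjusted p = 0.212). NANOG did not, with 67.5 and 93.5, 101 and 75.6, and 42.6 and 49.5 CPM, so that D11 and D13 overlapped and both lay above D15. Of these 18 genes, 5 were above D11 in both pools of D13 and 2 below, beside 15.3 and 18.2% of all genes. Across all genes tested, the median log2 fold change was 0.01, and over these 18 it was 0.34.

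Of the 12 genes of the primed state, 7 were above D11 in both pools of D13, beside 15.3% of all genes, and 2 below, DUSP6 and NODAL, beside 18.2%, with a median log2 fold change of 0.53. Of these 12, edgeR called 0, with 8 at an unadjusted p below 0.05, and the DESeq2 calls included OTX2, higher. DNMT3B, the DNA methyltransferase of the epiblast, was at 115 and 190 CPM on D11 and 255 and 252 CPM on D13 (adjusted p = 0.178), and OTX2, a factor of the postimplantation epiblast, at 2.43 and 1.94 against 6.78 and 4.67 CPM (adjusted p = 0.0566). CD24, a surface protein of primed cells, was at 789 and 1243 against 1716 and 1340 CPM. The days did not overlap in these genes, but none passed the edgeR test.

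Of the naive markers, 9 of 11 passed the filter on low values. Against D11, edgeR called DPPA3, and DESeq2 called DPPA3, DNMT3L and SUSD2 lower and DPPA5 higher, beside 1.99% of all genes called lower and 2.15% called higher by DESeq2. DPPA3 (ENSG00000187569, chromosome 12, 7711433 to 7717559), also known as STELLA, protects the maternal genome from demethylation in the early embryo. It was at 23.5 and 25.1 CPM on D11, 10.6 and 8.81 CPM on D13, and 4.23 and 3.43 CPM on D15, so that no days overlapped (log2 fold change from D11 −1.31 ± 0.20, adjusted p = 0.0401). It had a UMI in 3.73 and 3.93% of the chosen cells of D13 after thinning, against 10.4 and 10.2% on D11 and 0.428 and 0.58% of POU5F1-low cells of D13. KLF17 was at 0.132 and 0.0508 CPM on D13 with a UMI in 0.602 and 0.179% of unthinned cells, which is at the level of D0 fibroblasts (0.407 and 0.453%). ALPPL2 was at 5.46 CPM in pool A and 1.01 CPM in pool B, and DPPA5, an RNA-binding protein, at 197 and 248 CPM against 114 and 146 CPM on D11 (edgeR adjusted p = 0.123).

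Nodal and its feedback inhibitors differed between the pools of D13. In this pathway NODAL and GDF3 are ligands, TDGF1 is the co-receptor, FOXH1 the nuclear partner of the SMADs, and LEFTY1 and LEFTY2 are secreted inhibitors that the pathway itself induces. NODAL was at 219 and 182 CPM on D11, 160 and 52.3 CPM on D13, and 39.7 and 48.1 CPM on D15. LEFTY2 was at 407 and 374, 200 and 85.8, and 67.4 and 91.0 CPM (D13 against D11, log2 fold change −1.45 ± 0.34, adjusted p = 0.103), and TDGF1 at 443 and 624, 776 and 435, and 329 and 392 CPM. For NODAL and LEFTY2, D13 pool A lay between D11 and D15, whereas D13 pool B was close to D15. Of the 17 members other than CER1, edgeR called 0 between D11 and D13, with 4 at an unadjusted p below 0.05, and DESeq2 called LEFTY2 lower (adjusted p = 0.00214). With edgeR, LEFTY2 was also called without pool A of D13 (log2 fold change −2.11, adjusted p = 0.00367) and without pool B (adjusted p = 0.0361). Of the 17, 5 were at least 2-fold higher in pool A than in pool B, beside 5.99% of all genes tested, and 0 were higher by as much in pool B.

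**Figure D4:**
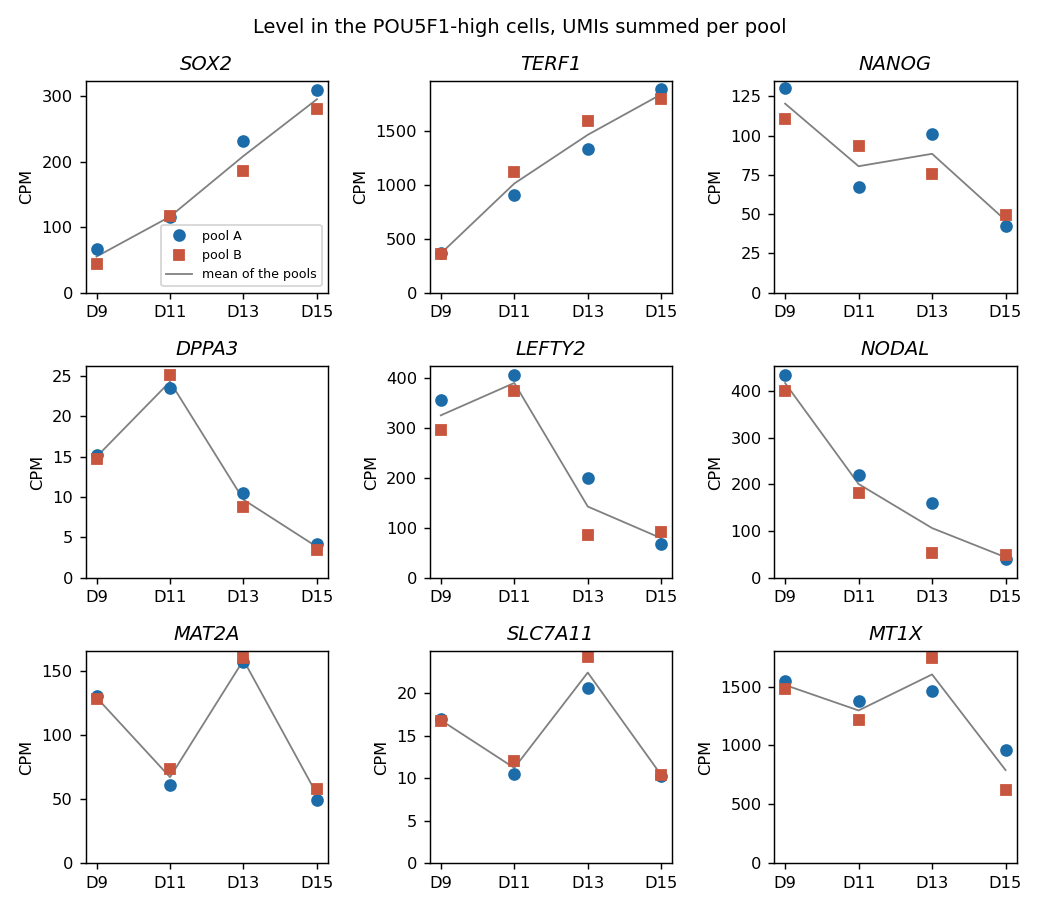
CPM of 9 genes in the POU5F1-high cells (y axis, linear from 0) on D9, D11, D13 and D15 (x axis), with 1 point per pool (circles A, squares B) and a line through the mean of the 2 pools; no error bar is drawn with n = 2. SOX2 and TERF1 were higher on each later day, DPPA3 was lower on each day after D11, and MAT2A was highest on D13 at 157 and 160 CPM.

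Metallothioneins are small proteins that bind zinc and copper. Of 8, 5 were above all 4 pools of D11 and D15 in both pools of D13, beside 4.95% of all genes, with a median log2 difference from the mean of D11 and D15 of 0.58 (0.03 over all genes). Against D11 and against the mean of D11 and D15, edgeR and DESeq2 each called 0 of 8, with 1 and 5 genes at an unadjusted p below 0.05 by either tool. From D13 to D15 edgeR called 0, with 6 at an unadjusted p below 0.05. DESeq2 called MT1M and MT1X lower on D15 (MT1X, DESeq2 adjusted p = 0.0112), beside 2.88% of all genes. MT1X was at 1375 and 1219 CPM on D11, 1463 and 1744 CPM on D13, and 962 and 618 CPM on D15. MT1H was at 630 and 539, 650 and 737, and 525 and 262 CPM, while MT2A, at 656 and 421, 548 and 572, and 415 and 227 CPM, overlapped with D11. The distance to D11 was small for MT1X and MT1H in pool A. In the POU5F1-low cells MT1X was at 396 and 194 CPM on D11 and 204 and 689 CPM on D13. MT1H was there at 127 and 26.2 CPM on D11 and 26.8 and 246 CPM on D13. Both genes thus overlapped between these days in the POU5F1-low cells. The coding sequences of these genes are alike and their neighbours can share reads, so that the level of a single MT1 gene is uncertain.

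The promoters of the 3 listed metallothionein genes with an entry in the RefSeq table (GRCh38.p14, 250 bases before to 50 bases after the start, plus strand of chromosome 16) are printed because 5 of the 8 genes shared one pattern over the days. MT1H and MT1X are among these 5, and MT2A is not. Capitals mark the core of the metal response element, TGCACNC or TGCGCNC on either strand, which is bound by the zinc sensor MTF1. MT1H, with 8 matches, spans chr16:56669564-56669863, MT1X, with 4 matches, chr16:56682220-56682519, and MT2A, with 8 matches, chr16:56608334-56608633. Of all promoters of this length in the table, 0.601% held 4 or more matches and 0.0199% held 8 or more. A match in these letters is a description and not evidence of binding.
MT1H: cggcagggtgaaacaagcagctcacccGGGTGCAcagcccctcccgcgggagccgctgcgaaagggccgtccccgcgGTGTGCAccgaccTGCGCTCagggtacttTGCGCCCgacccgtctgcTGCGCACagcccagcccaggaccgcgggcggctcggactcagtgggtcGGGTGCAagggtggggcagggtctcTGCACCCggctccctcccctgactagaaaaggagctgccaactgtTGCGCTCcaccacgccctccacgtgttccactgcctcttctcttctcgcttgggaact
MT1X: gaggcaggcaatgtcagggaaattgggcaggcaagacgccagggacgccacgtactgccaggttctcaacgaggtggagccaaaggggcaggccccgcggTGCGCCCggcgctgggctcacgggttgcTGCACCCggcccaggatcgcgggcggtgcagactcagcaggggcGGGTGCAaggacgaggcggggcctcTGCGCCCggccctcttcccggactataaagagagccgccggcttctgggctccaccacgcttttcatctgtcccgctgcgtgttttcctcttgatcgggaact
MT2A: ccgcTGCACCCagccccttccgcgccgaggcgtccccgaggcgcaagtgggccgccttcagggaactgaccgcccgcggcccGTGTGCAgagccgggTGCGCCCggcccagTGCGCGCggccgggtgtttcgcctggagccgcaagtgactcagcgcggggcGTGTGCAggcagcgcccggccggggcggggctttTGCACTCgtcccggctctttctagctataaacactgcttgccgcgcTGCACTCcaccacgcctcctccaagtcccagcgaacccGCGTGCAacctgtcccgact

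Genes of serine synthesis and of the amino acid response through ATF4 were also examined. Of 22, 5 were above both D11 and D15 in both pools of D13, beside 4.95% of all genes. Against D11 edgeR called 0, with 6 at an unadjusted p below 0.05, and DESeq2 called SLC7A11 higher and SESN2 lower. SLC7A11, the cystine importer, was at 10.4 and 11.97 CPM on D11, 20.6 and 24.3 CPM on D13, and 10.3 and 10.4 CPM on D15, with no overlap (log2 fold change from D11 1.04 ± 0.20, adjusted p = 0.0636). PSPH, the last enzyme of serine synthesis, was at 38.9 and 33.0, 64.4 and 49.4, and 24.98 and 29.8 CPM. By contrast, PHGDH, the first enzyme, was at 393 CPM in pool A and 139 CPM in pool B of D13, on either side of D11 (268 and 227 CPM), and ATF4 at 232 and 116 CPM. In this list 8 genes were at least 2-fold higher in pool A than in pool B, beside 5.99% of all genes tested.

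Of 20 genes of cholesterol synthesis, 16 were below D11 in both pools of D13, beside 18.2% of all genes, with a median log2 fold change of −0.67. Of the 20, edgeR called 0, with 13 at an unadjusted p below 0.05, and the DESeq2 calls included HMGCS1 and INSIG1, both lower. HMGCS1, an early enzyme, was at 54.4 and 67.5 CPM on D11 and 34.9 and 27.8 CPM on D13 (adjusted p = 0.0784). Of 17 immediate early genes tested, 11 were below D11, beside the same 18.2%. Of these 17, edgeR called JUN lower, beside 0.319% of all genes, and DESeq2 called 5 lower, beside 1.99%. The median log2 fold change of the 17 was −0.77, and FOS, the partner of JUN, was at 41.8 and 37.0 against 23.1 and 21.6 CPM (adjusted p = 0.102). Between D13 and D15, both pools of D15 lay below those of D13 for 21 of 24 fibroblast genes, beside 22.3% of all genes, and above them for 25 of 54 genes of G2 and M phase, beside 23.5%. In this comparison edgeR called 0 of both lists, with 17 and 14 genes at an unadjusted p below 0.05, beside 18.2% of all genes. DESeq2 called 7 fibroblast genes lower, beside 2.88% of all genes, and 2 genes of G2 and M phase higher, beside 1.78%.

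Of 9 enzymes that write or remove DNA methylation, edgeR called 0 between D11 and D13, with 4 at an unadjusted p below 0.05, and DESeq2 called DNMT3L lower and TET3 higher, beside 1.99 and 2.15% of all genes. The maintenance methyltransferase DNMT1 was at 108 and 125 CPM on D11, 78.0 and 96.1 CPM on D13, and 164 and 165 CPM on D15, and TET1, which oxidises 5-methylcytosine, at 112 and 133, 72.0 and 83.7, and 126 and 114 CPM. Of the 9 enzymes tested, these 2 were lower in each pool of D13 than in the other 4 pools, beside 7.09% of all genes (adjusted p = 0.414 and 0.187 against D11). From D13 to D15 edgeR called 0 of the 9, with 4 at an unadjusted p below 0.05. DESeq2 called 1 higher and 2 lower, beside 1.78 and 2.88% of all genes, with DNMT1 but not TET1 among them.

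The transfected factors were no longer supplied on D13, and the tables do not separate transfected from endogenous RNA. LIN28A was at 198 CPM in pool A and 609 CPM in pool B of D13, against 302 and 247 CPM on D11 and 599 and 350 CPM on D15, so that each day overlapped with the next. MYC was at 84.5 and 29.7 CPM and KLF4 at 6.66 and 2.15 CPM. Among the receptors and ligands that the study followed between cell populations, MET, the receptor of HGF, was at 3.60 and 3.48 CPM, ERBB3 at 20.6 and 25.2 CPM and its ligand NRG1 at 3.27 and 2.21 CPM. HGF was at 0.113 and 0.695 CPM in the chosen cells, against 5.97 and 9.80 CPM in POU5F1-low cells. IL6R was at 1.09 and 1.46 CPM and had a UMI in 0.602 and 0.536% of thinned cells, against 0.537 and 0.41% of D0 fibroblasts.

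Markers of other fates had a UMI in differing shares of the chosen cells. SOX17, a factor of endoderm and germ cells, had a UMI in 0.481% of unthinned cells of pool A and 5.11% of pool B, beside 41.8 and 40.8% of the CER1-high cells. Both shares were below those of the POU5F1-low cells, 1.93 and 6.38%. PAX6, of neuroectoderm, had one in 1.08 and 0.715% of the chosen cells. Beside this stand 0.642 and 0.484% of POU5F1-low cells of D13 and 0.0163 and 0.0216% of D0 cells, both at lower depth. MIXL1, of mesendoderm, had a UMI in 20.7 and 27.6% of unthinned cells, beside 75.9 and 73.1% of the CER1-high and 7.71 and 20.4% of the POU5F1-low cells. Both of these other classes held fewer UMIs per cell. After thinning to 5000 UMIs, the shares were 1.9 and 4.1% of the chosen cells. They were 43.0 and 44.5% of the CER1-high and 1.7 and 6.3% of the POU5F1-low cells. In the chosen cells MIXL1 was at 29.4 and 14.7 CPM on D11, 6.46 and 8.49 CPM on D13, and 5.46 and 3.41 CPM on D15 (adjusted p = 0.112 for D13 against D11). The summed level of the 24 fibroblast genes was 2177 and 2934 CPM in the chosen cells, against 37650 and 22760 CPM in POU5F1-low cells. S100A4, which marks fibroblasts, had a UMI in 16.4 and 40.0% of thinned cells, against 74.9 and 72.6% of POU5F1-low cells.

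Genes were ranked by how far the chosen cells varied among themselves, without a cut-off. The Fano factor (variance over mean) of each of 3873 genes was taken after thinning to 5000 UMIs and divided by the median of genes of like mean. The 12 genes with the largest ratio in both pools were MALAT1, TMSB4X, GAL, NTS, CSH1, MT-CO1, MT-CO2, ACTA1, CALD1, ACTC1, MT-CO3 and TAGLN. They comprise a nuclear noncoding RNA, mitochondrial transcripts, the neuropeptides galanin and neurotensin, a placental hormone, and genes of the actin cytoskeleton. The ratio was 12.6 in pool A and 3.30 in pool B for ACTA1, 8.61 and 2.78 for TAGLN, and 10.96 and 3.51 for CSH1. For all 12 it was larger in pool A.

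**Figure D5:**
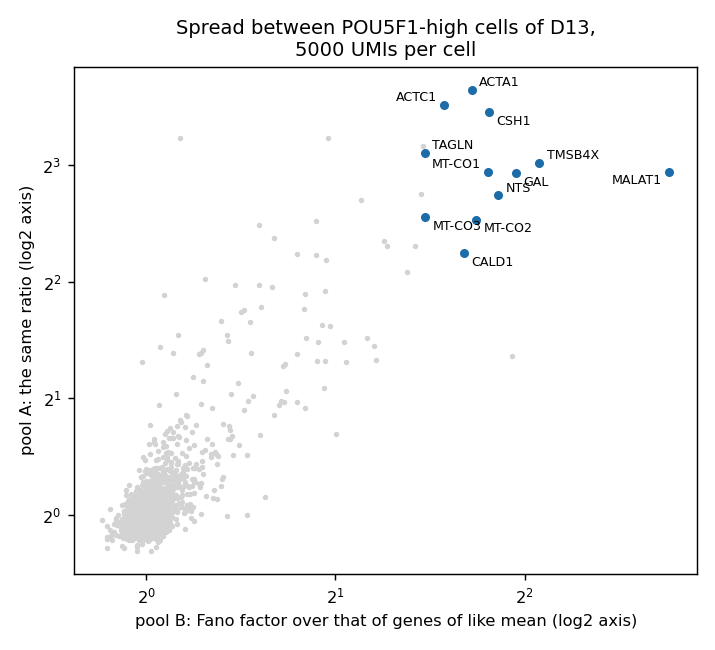
Fano factor of each gene over that of genes of like mean, after thinning each POU5F1-high cell of D13 to 5000 UMIs, in pool B (x axis) and pool A (y axis), both on log2 axes, 1 point per gene. The 12 named genes lie to the upper right, with ACTA1 at 12.6 in pool A and MALAT1 at 6.79 in pool B.

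CSH1, a hormone gene of the placenta, and ACTA1 were unevenly spread over the cells. The 5% of cells with most UMIs of CSH1 held 88.5% of its UMIs in pool A and 87.0% in pool B, and those of ACTA1 57.4 and 51.9%. This share is larger for genes with few UMIs, and CSH1 had a mean of 0.409 and 0.121 UMIs per thinned cell and ACTA1 of 1.60 and 0.393. SOX2, with a mean of 1.15 and 0.944 UMIs, gave 17.7 and 18.8%, and NANOG, with 0.526 and 0.383 UMIs, 22.6 and 28.3%. CSH1 had a UMI in 9.75 and 6.58% of thinned cells (28.9 and 30.0% unthinned), and ACTA1 in 34.1 and 22.8% (71.8 and 73.5% unthinned), beside 0.0814 and 0.0216% of unthinned D0 cells. The background in the same libraries was higher. Of thinned POU5F1-low cells of D13, 0.428 and 3.48% had a UMI of CSH1 (8.78 and 17.9% unthinned). For ACTA1 these shares were 8.35 and 13.4% (30.6 and 51.9% unthinned).

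Genes of the cytoskeleton varied together and against TERF1. Across cells, Pearson's r between TAGLN and CALD1, which bind actin in contractile cells, was 0.595 in pool A (n = 831 cells) and 0.341 in pool B (n = 2797), and between TAGLN and ACTC1 0.605 and 0.22. Between TERF1 and TAGLN it was −0.545 and −0.302, beside −0.502 and −0.61 in the pools of D11 and −0.366 and −0.298 in those of D15. LEFTY1 and LEFTY2, which lie side by side on chromosome 1 and are similar in sequence, had 0.358 and 0.267. The cells of a pool share a library, these pairs were chosen after the values had been seen, and the coefficients are given as a description.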

How the data were processed

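Single-cell RNA sequencing tables of the time course were used. They hold raw UMI counts per gene and cell barcode, which the authors made with Cell Ranger 2.2 on GRCh38 with 33694 genes and deposited without normalization, with 44197 barcodes in 22 libraries of 16 pools over 8 days. Aliquots of a pool were added together. The limits on cells were 1000 detected genes or more and a mitochondrial share of 10% or less. No doublet caller was run, and the removal of the 5% of cells with most UMIs was tried instead.

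UMIs of the POU5F1-high cells were summed per pool for D9, D11, D13 and D15. Genes found in 5% or more of them were compared with edgeR 4.0.16 (TMM, quasi-likelihood test, day as the only term) in R 4.3.3 with limma 3.58.1, and DESeq2 1.42.0 was an alternative. The method was tested on simulated counts in which a gene had the same spread in every pool. The wider spread between the pools of D13 was thus not part of that test. Levels are CPM of these sums. Shares of cells and Fano factors were computed after thinning each cell to 5000 UMIs (numpy 2.4.6 and scipy 1.17.1 under Python 3.11.15), and no D13 cell was left out. Fano factors were taken for genes with a mean of at least 0.1 UMI. Figures were drawn with matplotlib 3.10.9. Coordinates are from gencode v44 and promoters from RefSeq.

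Named genes were the 8 largest called changes each way between days at 20 CPM or more in both pools of the higher day and without overlap of the pools, called and highly expressed members of the lists, the 8 largest ratios each way between the pools at 50 CPM or more, the 10 largest each way between POU5F1-high and POU5F1-low cells, the 12 genes with the largest spread, and the markers, transfected factors and receptors. Genes with symbols starting with MT-, RPL or RPS were left out when genes were named in the comparisons of days and pools, but not from the tests and counts. Other genes were named after their values had been seen. The cells and the gene lists were chosen with earlier results of these data known. The authors' cluster test over single cells was not repeated, since cells of 1 pool are not replicates. Some items are not reported here.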

Additional observations from a re-analysis of the deposited data

How the results depend on the processing

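For D13 against D11, the 75 genes called became 544 with DESeq2, 1102 without a gene filter, 36 with sums thinned to the smallest total, 29 with POU5F1 at 1000 CPM or more, 27 with strict cell limits (2000 genes or more, mitochondrial share of 5% or less), and 0 with only the pools of D11, D13 and D15, with an adjusted p below 0.01 or with POU5F1 at 250 CPM or more. Leaving out 1 pool gave between 0 (either D11 pool) and 1904. In all of these settings with a fit of their own the 75 genes kept their direction. They had been chosen by their difference between these same pools, so this is no separate support. With the pool letter as a replicate block the count was 0 for this and for the other 2 comparisons. Whether a letter follows the same replicate over the days was not settled. The correlation of the differences between pools ranged from −0.29 to 0.594 over the 6 pairs of days. It cannot decide this, since these differences also vary from library to library. For D15 against D13 the count of 0 became 613 with DESeq2, 1200 without a gene filter and 24 with the strict cell limits, and lay between 0 and 4250 with 1 pool left out. For D13 against the mean of D11 and D15 the count of 0 became 62, and 458 without a gene filter, and lay between 0 and 2536 with 1 pool left out. The share of POU5F1-high cells in pool B, 68.7%, was 78.7% at 250 CPM, 13.1% at 1000 CPM, 61.5% with CER1 below 50 CPM, 48.3% with the strict cell limits and 52.1% after thinning. The share of genes past the limit between the pools, 15.4% at 2-fold, was 1.94% at 3-fold and 13.4% after TMM scaling. Of the 12 genes with the largest spread, 9 were among the first 12 at 10000 UMIs per cell. The cause of these changes was not tested, beyond the fewer samples or other cells that a setting uses. For single named genes, 508 values stayed on the same side of the threshold, 116 lost the call and 62 gained it. The shares of cells with a UMI all moved with the depth of thinning (32 values). With 2 pools per day, small differences are not detectable.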

Other observations

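Some genes outside the comparisons above are given as values. Of 17 heat shock and ER stress genes, edgeR called 0 between D13 and D15, with 6 at an unadjusted p below 0.05 (18.2% of all genes), and DESeq2 called 1 higher and 1 lower (1.78 and 2.88% of all genes). HSP90AA1, a cytosolic chaperone that DESeq2 called, was at 1868 and 2053 CPM in the POU5F1-high cells of D11, 1713 and 1667 CPM on D13, and 3224 and 3365 CPM on D15. D13 and D15 did not overlap. In the POU5F1-low cells it was at 726 and 1018 CPM on D13 and 1290 and 1514 CPM on D15. SFRP1, a secreted WNT antagonist, was lower on D13 than on D11 and D15, with 91.2 and 79.3 CPM on D11, 26.5 and 53.4 CPM on D13, and 197 and 157 CPM on D15. DESeq2 called it for D15 against D13 (edgeR adjusted p = 0.145) and for D13 against the mean of D11 and D15, where edgeR called no gene.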
